A study of Mus musculus with 45 samples.

Results

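The second step of the diet-induced change in hepatic stellate cells (HSCs) is described here, as the comparison of mice fed a Western diet with fructose in the drinking water (WD) for 16 weeks with mice fed WD for 12 weeks. The members were the 8 libraries titled with these weeks, 4 at 12 weeks (replicates A to D) and 4 at 16 weeks (replicates A to D), of 16 libraries in the WD experiment and 45 in the series. The WD experiment also holds 4 libraries of chow-fed mice (0 weeks) and 4 libraries of mice fed WD for 24 weeks. From the rest of the series, this account uses HSCs of mice given the hepatotoxic solvent CCl4 for 1, 4 or 8 weeks (3, 4 and 3 libraries) or vehicle (0 weeks, 4 libraries), and HSCs of untreated mice cultured for 12 days (IVT day 12) or held in suspension for 2 hours (day 0), with 3 libraries each that may be wells of one preparation. All mice were male, of strain C57BL6/J by the labels and C57BL/6JBomTac by the study's methods. The WD and chow mice were killed at the same age, so mice with 16 weeks of WD had begun the diet younger than mice with 12 weeks, and time on the diet cannot be told apart from age at its start. HSCs were isolated from liver and sorted by flow cytometry for live cells with retinoid autofluorescence, so cells that had lost their retinoid could have escaped the gate. Poly(A) RNA was sequenced, and the values are exon read counts per gene.

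HSCs are the vitamin A-storing pericytes of the liver sinusoid. In injured liver they lose their retinoid droplets, proliferate and turn into contractile myofibroblasts that secrete collagen and other matrix proteins. This activation has an inductive arm, in which genes of matrix, contraction, adhesion and inflammation are switched on, and a repressive arm, in which genes of the quiescent cell are turned down. The first 12 weeks and the next 4 weeks of WD can be read separately for each arm. A gene of interest could not be looked up here, because the counts did not follow the gene identifiers printed beside them. Olfactory and vomeronasal receptor genes, which liver cells do not use, had a mean count under 3 over the 8 libraries on 41.2% of their 1455 lines, against 40.5% of all 23999 lines. The line of B2m, a surface protein subunit of nearly every cell, held counts of 0 to 1, and the line of Xist, which is silent in male cells, held 94 to 567. Transcript length and mean count had a Spearman rho of 0.00615 over 23403 lines, as a description across genes. The labelled cell type could therefore not be checked against its markers. Genes are called rows below and are named by their line number. The line was taken as the same gene in the tables of the 3 experiments. By line, mean counts in chow had a rank correlation of 0.968 with those in vehicle and 0.933 with those at IVT day 0.

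The libraries differed in depth and in how far they stood from their own group. Total counts at 12 weeks were 6045174, 2425443, 5892116 and 6004252 in replicates A to D, so that replicate B was the shallowest. At 16 weeks they were 4419129, 3563264, 5545026 and 5034793. None of 6 library measures passed a two-sided exact permutation test between the groups (lowest p 0.143, adjusted 0.857). These were total count, rows detected, share of the 10 highest rows and the quartiles of the level. With 4 libraries a group the smallest p is 0.0286, so 1 fully separated measure alone could not pass after adjustment over 6. Within 16 weeks, replicates A and B had a rank correlation of 0.975 with each other and C and D one of 0.971, against 0.888 to 0.947 between these pairs. Within 12 weeks, replicate A had 0.901 to 0.921 with the others, which had 0.975 to 0.988 among themselves. As a check for repeated deposits only, the counts of every pair of libraries of a week differed by more than sampling noise. The main results that rest on replicates C and D at 16 weeks are also given without both.

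Among the rows called between 12 and 16 weeks, more rose than fell, and the rises were larger. Of 13510 rows tested, 1173 were higher (8.68%) and 465 were lower (3.44%) at 16 weeks, called where the FDR was 0.05 or less and the mean log2CPM of both groups exceeded 2 (CPM, counts scaled to a common library size). The median log2FC was 1.66 over the higher and -0.79 over the lower rows, against -0.10 over all rows tested. Of all rows tested, 58.7% had a negative estimate, and 2034 rows were higher and 2022 lower at an unadjusted p under 0.05. In these bulk libraries, fewer cells of a kind and less RNA per cell cannot be told apart. At least 2-fold changes were seen in 847 higher and 155 lower rows, at least 4-fold changes in 469 and 12, and at least 8-fold changes in 127 and 3. The 4 libraries of 16 weeks lay above the 4 of 12 weeks, with no overlap, in 1042 of the higher rows, and below them in 348 of the lower rows. Over all rows tested, 10.0% lay entirely above and 6.11% entirely below. The edge of the call lay at an adjusted p of 0.0498 for the last row called higher and 0.0496 for the last called lower, and at 0.0501 for the first row not called in either direction. The comparison of 24 with 16 weeks called 0 rows in either direction by edgeR, with 241 higher and 80 lower at an unadjusted p under 0.05. It also called 0 rows with the replicate letter as a block, which was tried because same-lettered libraries of these weeks deviated together (r of 0.324 to 0.68).

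**Figure D1:**
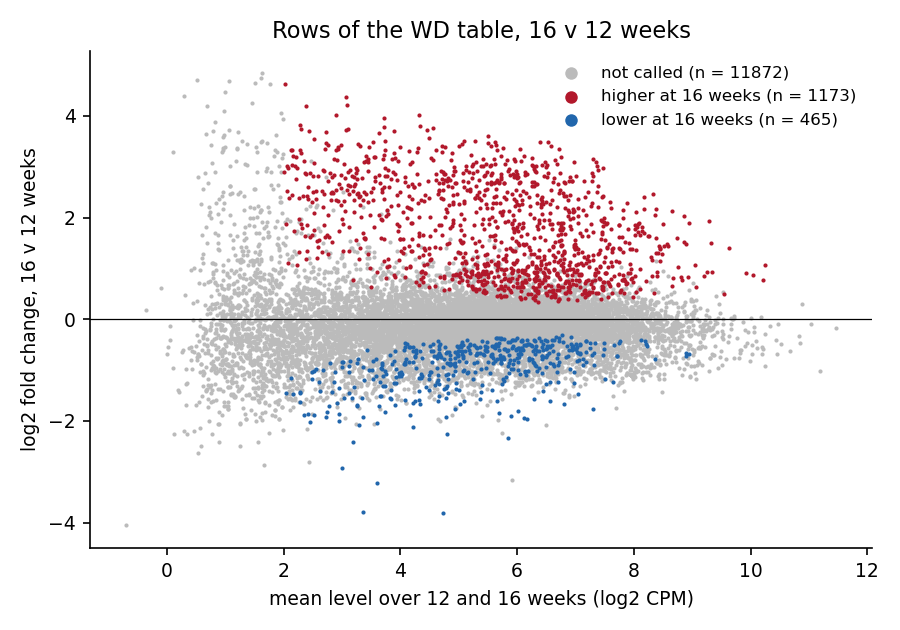
Each point is a row of the WD table, with its mean level over 12 and 16 weeks (log2 CPM) on the x axis and its log2 fold change at 16 against 12 weeks on the y axis. The 1173 rows called higher (red) reach further from 0 than the 465 called lower (blue), and the grey rows were not called.

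Both counts depended on single libraries, the lower count most. Without replicate C or D of the 16-week group, 700 or 709 rows were higher and 78 or 81 lower. Without replicate C or D of the 12-week group, 217 or 195 rows were lower, and without replicate B of the 16-week group 820 were. With replicates A and B alone at 16 weeks, an alternative chosen after seeing the data, 111 rows were higher and 1 was lower. The median log2FC of the rows called with all libraries was then 1.08 for the 1173 higher and -0.57 for the 465 lower rows. Replicates A and B had helped to choose these rows, so the direction of these medians was largely fixed. The same holds for the medians with A and B alone over parts of these rows given below. The spread was shared over all 4 groups in the test, and a fit of the 8 libraries alone gave 820 higher and 97 lower rows.

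At the median, the repression was a modest decrease of rows that were well expressed in chow. Of the lower rows, the 65 that were higher at 12 weeks than in chow were rare there, with a median of 2.59 to 3.66 CPM per library. The lower rows had a median chow level of 5.75 on the log2(CPM + 1) scale, against 5.06 over all rows tested and 3.57 for the higher rows. Over the 12-week and 16-week libraries their median log2CPM was 5.36, against 5.38 over all rows tested. Their median level at 12 weeks was 5.67, 5.64, 5.69 and 5.79 in replicates A to D, on the same scale. At 16 weeks it was 5.06, 5.04, 4.63 and 4.74. All 4 libraries of 16 weeks were thus below those of 12 weeks, as the choice of the rows fixes, and C and D were lower than A and B. Replicate C was the lowest 16-week library in 279 of the 465 rows, and replicate D in 119. Relative to chow, the median row was 0.17, 0.22, 0.16 and 0.09 below the chow mean at 12 weeks in replicates A to D, and 0.64, 0.69, 1.08 and 0.97 below it at 16 weeks.

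**Figure D2:**
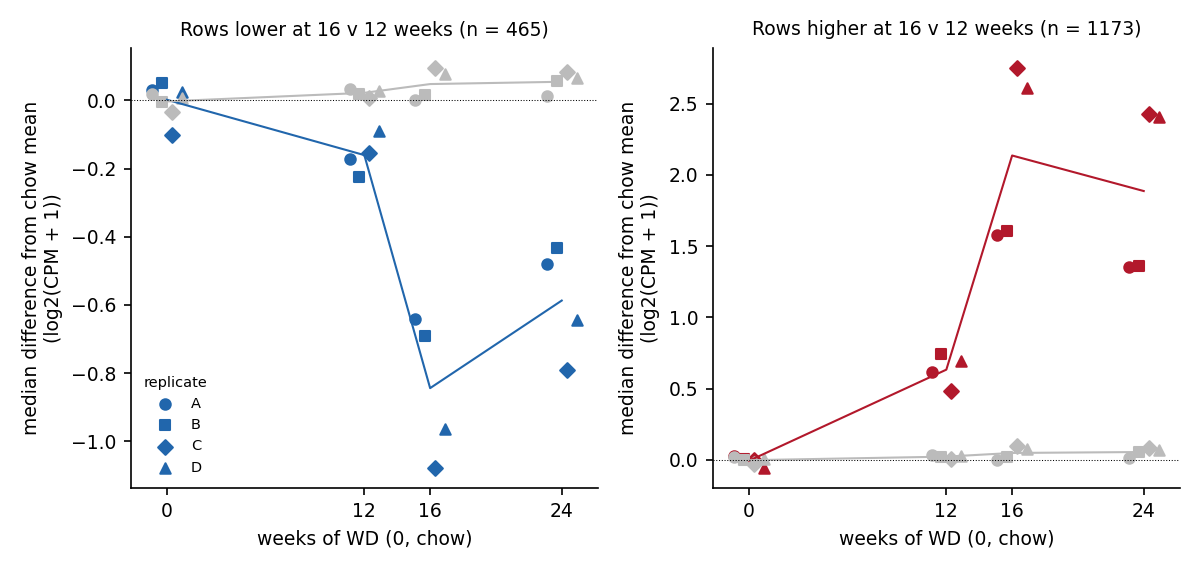
The y axis is the median over rows of the difference from the chow mean in log2(CPM + 1), the x axis is weeks of WD, each symbol is 1 library and the lines join group means. Lower rows (blue) and higher rows (red) were chosen for their change after 12 weeks, with replicates C and D further out than A and B at 16 and at 24 weeks, while all rows tested (grey) stayed near 0.

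The 4 most abundant lower rows whose libraries did not overlap show the size of this decrease. Row 19705 had 728.0, 617.5, 537.6 and 549.6 CPM at 12 weeks and 485.5, 475.3, 258.4 and 300.2 CPM at 16 weeks, beside 608.5 to 705.1 CPM in chow. Its log2FC at 16 against 12 weeks was -0.68 (SE 0.205, adjusted p = 0.0409), and it was -0.08 at 12 weeks against chow. At 12 weeks row 19705 was above every chow library in replicate A and below every chow library in C and D, and all 4 libraries at 16 weeks were below those of 12 weeks. Rows 16658, 17163 and 19627 had a log2FC of -0.73, -0.65 and -0.77 at 16 against 12 weeks, with adjusted p between 0.0418 and 0.042. All 4 rows lost the call when any single library of 12 weeks, or replicate C or D of 16 weeks, was left out. They also lost it in the fit of the 8 libraries alone (edgeR adjusted p of 0.137 to 0.153). The same held for the exact test and for no filter on low counts, whereas the DESeq2 test kept all 4 calls.

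The rows that fell after 12 weeks were next divided by their change in the first 12 weeks. Of the 465 rows, 356 were not called at 12 weeks against chow, 44 were lower and 65 were higher. Both comparisons use the 12-week libraries, so these counts are a description. Over all rows tested, 18.5% were higher and 6.61% lower at 12 weeks against chow, so that the uncalled share of the 465 rows was near that of all rows. By estimate, 182 of the 465 rows (39.1%) lay within 0.25 of the chow level (log2 scale) at 12 weeks, where 32.7% of all rows tested did. Most of the other lower rows lay further below chow. In 414 of the 465 rows the 16-week mean was below the chow mean, and in 311 the 12-week mean already was. Over all rows tested, 47.85% had a negative estimate at 16 weeks against chow.

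Among rows flat over the first 12 weeks, row 13253 had the highest level of the 4 that fell most. It had 126.7 to 138.0 CPM in chow and 64.98, 146.6, 135.2 and 121.0 CPM at 12 weeks, then 53.08, 59.12, 11.50 and 34.18 CPM at 16 weeks. The replicate with the lowest value of its group was A at 12 weeks and C at 16 weeks, and the groups did not overlap. Its log2FC was -1.57 (SE 0.426, adjusted p = 0.0247), and the call was lost without replicate B, C or D of 12 weeks or C or D of 16 weeks. Rows 17680, 4074 and 16716, with a log2FC of -2.01, -1.88 and -1.87, were rare, at 3.75 to 10.97 CPM over their 12-week libraries and 0.50 to 3.89 CPM at 16 weeks. Rows 17680 and 4074 each lost the call in 6 of the 8 fits that left out a library, and row 16716 in 3. In the fit of the 8 libraries alone, rows 13253 and 17680 lost the call (edgeR adjusted p = 0.0784 and 0.0517), and rows 4074 and 16716 kept it.

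Row 9910 was highest in chow and lower at each of the following groups up to 16 weeks. It had 30.26 to 62.06 CPM in chow, then 9.28, 8.78, 15.89 and 22.93 CPM at 12 weeks and 5.49, 3.77, 0.17 and 1.80 CPM at 16 weeks. Its log2FC at 16 against 12 weeks was -2.42 (SE 0.673, adjusted p = 0.0280), and the value at 12 weeks against chow, -1.54, did not pass the test (adjusted p = 0.0609). At 24 weeks it had 8.51, 11, 2.09 and 2.21 CPM. Rows 2023, 13710 and 402 had the same order of group means, with a log2FC of -1.85, -1.76 and -1.86 at 16 against 12 weeks and -1.94, -1.75 and -1.72 at 24 weeks against chow. The call of row 2023 held without any 1 library, and that of 13710 was lost without replicate D of 16 weeks. Those of 9910 and 402 were lost without C or D of either week. In the fit of the 8 libraries alone, row 2023 kept the call. Rows 13710, 9910 and 402 lost it there (edgeR adjusted p = 0.0593, 0.075 and 0.0788).

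The 65 rows that were higher at 12 weeks than in chow and then fell held all but 1 of the 6 named largest decreases. Their median log2FC was 2.99 at 12 weeks against chow and -1.44 at 16 against 12 weeks, or -1.07 with replicates A and B alone at 16 weeks. Their summed level was 4306, 3508, 2551 and 3167 CPM at 12 weeks in replicates A to D, and 2066, 1525, 1307 and 1175 CPM at 16 weeks. Replicate A of 12 weeks, which stood apart from its group, was the highest of the 8 libraries in 31 of the 65 rows. The part of that library in these values was not tested beyond the fits that leave it out.

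Row 14567 was the most abundant of the 4 named from this set. It had 166.7, 82.94, 73.54 and 57.74 CPM at 12 weeks and 33.41, 8.11, 13.84 and 20.19 CPM at 16 weeks, beside 0.32 to 8.22 CPM in chow. Its log2FC at 16 against 12 weeks was -2.33 (SE 0.632, adjusted p = 0.0249), and the call was lost without replicate A of 12 weeks or replicate C or D of 16 weeks. Row 9621 had 16.25, 29.40, 18.43 and 22.77 CPM at 12 weeks and 5.49, 1.16, 0.67 and 2.00 CPM at 16 weeks, with 1 read in chow in all. Its log2FC was -3.21 (SE 0.568, adjusted p = 0.00252), and the call held without any 1 library. Row 17025, with a log2FC of -3.79 (SE 0.843, adjusted p = 0.00908), also kept its call without any 1 library, although replicate A gave 43.56 CPM at 12 weeks and the others 6.83 to 10.97 CPM. Without that library the log2FC of row 17025 was -2.85. Row 21392 fell most, from 33.14 to 85.34 CPM at 12 weeks to 0 to 13.27 CPM at 16 weeks. Its log2FC was -3.82 (SE 1.14, adjusted p = 0.0392), and it lost its call in 7 of the 8 fits that left out a library. The call of row 21392 was also lost by the exact test (adjusted p = 0.0692), by DESeq2 (0.0971) and in the edgeR fit of the 8 libraries alone (0.0782). Without replicate A of 16 weeks, where it had 13.27 CPM, its log2FC was -7.67. Row 18696, the sixth of the largest falls, had 35.84 to 68.46 CPM at 12 weeks and 0.87 to 20.82 CPM at 16 weeks. It also lost its call in 7 of the 8 fits that left out a library, and in the fit of the 8 libraries alone.

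**Figure D3:**
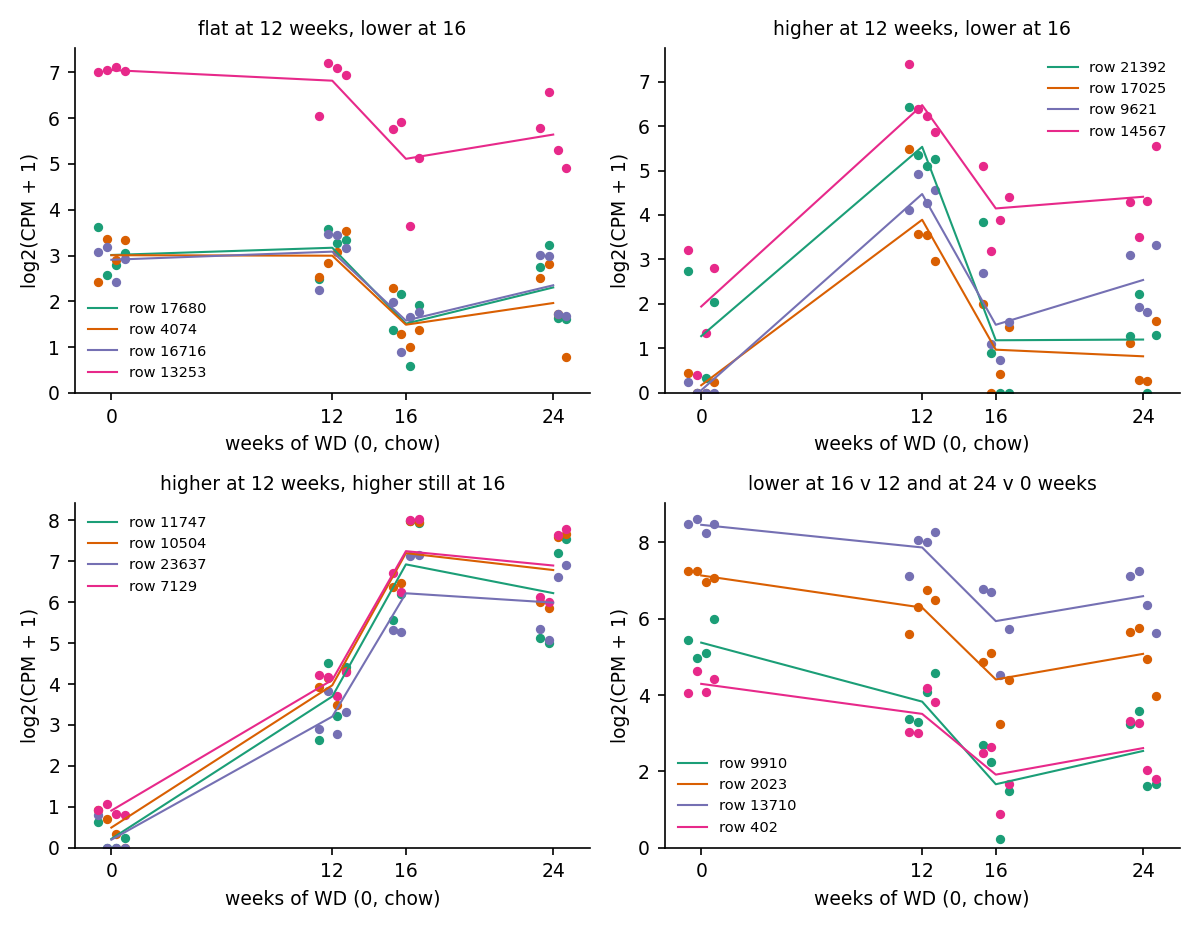
Each panel shows 4 named rows by weeks of WD, as log2(CPM + 1), with 1 point per library and lines through group means. Rows that were flat at 12 weeks and rows that had risen by then both fell at 16 weeks, and in the lower left panel row 7129 reached 74.48 to 260.3 CPM at 16 weeks.

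The rows that rose after 12 weeks covered a wide range of levels in chow, with a lower quartile of 0.86, a median of 3.57 and an upper quartile of 5.71 on the log2(CPM + 1) scale. Of the 1173 rows, 786 were not called at 12 weeks against chow, 357 were already higher and 30 were lower, where 18.5% of all rows were higher and 6.61% lower. In 159 of them every chow library held 3 counts or fewer. Their median level at 12 weeks was 4.52, 4.91, 4.61 and 4.87 on the log2(CPM + 1) scale in replicates A to D. At 16 weeks it was 5.86, 5.79, 6.83 and 6.79. Replicates C and D of 16 weeks were the highest library of that group in 664 and 494 of the rows, and A and B in 4 and 11.

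The 357 rows that rose in both steps had a median log2FC of 3.59 at 12 weeks against chow and 2.28 at 16 against 12 weeks. With replicates A and B alone at 16 weeks the latter was 1.62, and 85 of the 111 higher rows of that fit had also risen at 12 weeks. Row 7129 had 17.67, 17.12, 12.00 and 18.71 CPM at 12 weeks and 104.1, 74.48, 254.9 and 260.3 CPM at 16 weeks, beside 0.73 to 1.12 CPM in chow. Its log2FC was 3.41 (SE 0.472, adjusted p = 0.00125). Row 10504 had 10.14 to 19.03 CPM at 12 weeks and 81.91, 88.10, 250.5 and 249.3 CPM at 16 weeks, with a log2FC of 3.49 (SE 0.526, adjusted p = 0.00153). In both rows replicates C and D of 16 weeks were more than 2-fold above A and B, and A and B were in turn above every library of 12 weeks. Rows 11747 and 23637 had the same order of libraries, with a log2FC of 3.50 and 3.42. Rows 7129 and 10504 were the 2 of 31 named rows that kept the call under every alternative, replicates A and B alone included.

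The largest rises were of rows almost absent before. Row 4453 held 0, 1, 3 and 1 counts at 12 weeks and 14, 16, 93 and 18 counts at 16 weeks, and 0 counts in all chow libraries. Its log2FC was 4.62 (SE 0.862, adjusted p = 0.00514), from these few counts. It was 3.79 without replicate C of 16 weeks, and the row then fell under the expression threshold of the call, as it did without replicate B. Row 2282 had 0.16 to 0.88 CPM at 12 weeks and 5.95, 6.38, 17.67 and 5.20 CPM at 16 weeks, with a log2FC of 4.19 (SE 0.721, adjusted p = 0.00231), and of 3.60 and under that threshold without replicate C of 16 weeks. Rows 13187, 5166, 3690 and 11921 were between 0.17 and 6.14 CPM over their 12-week libraries and between 1.83 and 59.18 CPM at 16 weeks.

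At the top of the abundance range, row 10553 had 662.3, 1136, 639.2 and 684.5 CPM at 12 weeks and 1336, 1410, 1837 and 1989 CPM at 16 weeks. Its log2FC was 1.07 (SE 0.237, adjusted p = 0.00875). Row 18094 differed in that the 12-week libraries were below chow, at 516.3, 890.0, 742.3 and 824.7 CPM against 945.0 to 1047 CPM, although this first difference did not pass the test (log2FC -0.40, adjusted p = 0.162). At 16 weeks row 18094 had 1128, 1168, 1482 and 1681 CPM, with a log2FC of 0.88 (SE 0.207, adjusted p = 0.0125). Row 7144 and row 16946 rose by a log2FC of 0.91 and 1.40, and row 7144 lost its call without replicate C or D of 12 weeks or D of 16 weeks. In the fit of the 8 libraries alone, rows 10553, 18094 and 7144 lost the call (edgeR adjusted p = 0.0558, 0.0810 and 0.0969). In the set of 30 rows that fell first and rose afterwards, the median log2FC was -0.63 at 12 weeks against chow, 0.77 at 16 against 12 weeks and 0.12 at 16 weeks against chow.

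Against chow, the number of lower rows grew far more between the 12-week and 16-week comparisons than the direct comparison of the weeks. Lower rows made up 24.3% of all rows tested at 16 weeks against chow and higher rows 27.5%. A total of 2548 rows were lower at 16 weeks against chow without being called lower at 12 weeks. Of these, 324 (12.7%) were called lower at 16 against 12 weeks, where 3.44% of all rows tested were. A negative estimate at 12 weeks was already held by 2456 (96.4%), where 48.7% of all rows tested had one. The median log2FC of the 2548 rows was -0.43 at 12 weeks against chow, -0.64 at 16 against 12 weeks and -1.07 at 16 weeks against chow. Of 1549 rows newly higher at 16 weeks against chow, 698 (45.1%) were called higher at 16 against 12 weeks. Over all rows tested that share was 8.68%. These comparisons share libraries and are set side by side as a description. With replicates A and B alone at 16 weeks, 751 rows were newly lower, 1 of them by the direct comparison. The 324 rows came down to 127 or 110 without replicate C or D of 12 weeks and to 47 or 50 without replicate C or D of 16 weeks, and were 627 without replicate B of 16 weeks.

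Whether the second step differed from the first was tested within the same model, as the change from 12 to 16 weeks minus the change from 0 to 12 weeks. The second interval was shorter than the first and the steps were not scaled for this, so rates of change were not compared. The second step was above the first in 202 rows (1.50%) and below it in 1521 rows (11.3%). Of the 465 rows lower at 16 against 12 weeks, 91 were below and 0 above. Of the 1173 higher rows, 130 (11.1%) were above and 68 (5.80%) below, with a median difference of the steps of 0.57 (log2 scale). Since the test uses the change by which these rows were chosen, the counts are a description. For most of the rows that fell after 12 weeks, the 2 steps were thus not told apart. With replicates A and B alone at 16 weeks, the second step was above the first in 1 and below it in 24 of the 111 rows called higher in that fit. Over all 13749 rows tested in that fit, it was above the first in 50 and below it in 1200. The count of 202 was between 54 and 333 when 1 library was left out, with 54 without replicate A of 12 weeks, 333 without replicate A of 16 weeks, and 104 to 132 without replicate A, B or D of chow, B or C of 12 weeks, or C or D of 16 weeks.

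To place each library on the course of the diet with rows chosen in other mice, 3363 induced and 2379 repressed rows were taken from a fit of the chow and 24-week libraries alone. The mean level over these rows was rescaled so that the chow mean was 0 and the 24-week mean was 100. For the induced rows, the 12-week libraries A to D stood at 100.5, 83.6, 73.0 and 72.6, and the 16-week libraries at 104.6, 93.2, 115.3 and 110.2. For the repressed rows, the values were 92.6, 65.7, 43.9 and 39.3 at 12 weeks and 97.8, 78.9, 174.5 and 126.1 at 16 weeks. At 12 weeks each library had gone less far along the repressed than along the induced rows. At 16 weeks this held for A and B, while C and D had gone further along the repressed rows. The 24-week libraries, whose mean sets 100, were split in the same way, at 91.0, 82.6, 109.9 and 116.5 for the induced and 71.4, 64.1, 120.2 and 144.2 for the repressed rows in A to D. Replicates A and B of 24 weeks were thus below A and B of 16 weeks in both. The groups of 12 and 16 weeks overlapped in both, since replicate A of 12 weeks stood above replicate B of 16 weeks.

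The mean position of the induced rows was 82.4 ± 13.1 at 12 weeks and 105.8 ± 9.49 at 16 weeks (SD, n = 4 each), a difference of 23.4 (two-sided exact permutation test over libraries, p = 0.0571). For the repressed rows it was 60.4 ± 24.4 and 119.4 ± 41.6 (SD, n = 4 each), a difference of 59.0 with an exact p = 0.0571. The repressed position minus the induced position of a library was -22.1 ± 11.4 at 12 weeks and 13.5 ± 33.0 at 16 weeks (exact p = 0.0571, n = 4 each). The smallest p this design allows is 0.0286, and none of the 3 differences passed 0.05. Without replicate C of 16 weeks the difference was 20.2 for the induced and 40.6 for the repressed rows, and with A and B alone it was 16.4 and 28.0. The last of the 3 differences, repressed minus induced, was 44.9 without replicate B of 16 weeks, with an exact permutation p of 0.0286. Without replicate C of 16 weeks it was 20.4 (exact permutation p = 0.114), and with A and B alone it was 11.6.

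**Figure D4:**
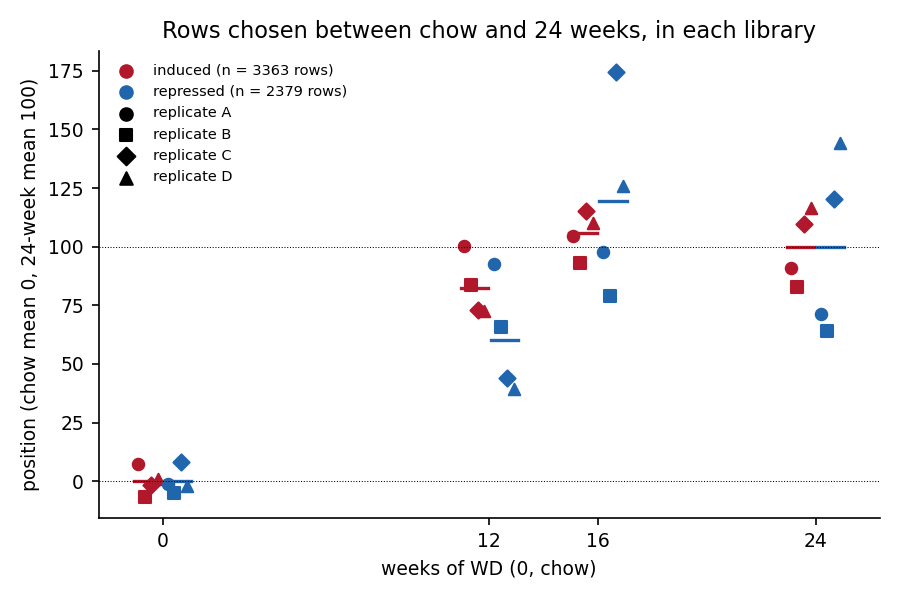
Position of each library between the chow mean (0) and the 24-week mean (100), for induced rows (red) and repressed rows (blue) chosen in the chow and 24-week libraries, by weeks of WD on the x axis. Symbols mark replicates and short lines group means, and replicate C of 16 weeks reached 174.5 for the repressed rows.

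The 24-week and chow libraries come from mice outside the comparison of 16 with 12 weeks, although all 16 libraries set the spread and scaling of that fit. Of the 465 rows lower at 16 weeks, 280 (60.2%) were lower at 24 weeks against chow, where 16.6% of all rows were, and 34 were higher, where 24.0% of all rows were. Their median log2FC at 24 weeks against chow was -0.60, against 0.06 over all rows tested. Of the 1173 rows higher at 16 weeks, 947 (80.7%) were higher at 24 weeks and 0 were lower, with a median log2FC of 2.20. In separate fits that shared no library, 97 rows were lower at 16 against 12 weeks, of which 93 were tested at 24 weeks against chow. Of these, 44 (47.3%) were lower and 18 (19.4%) higher, where 18.4% and 26.0% of all rows were. Of the rows higher at 16 weeks in these fits, 804 were tested, of which 745 (92.7%) were higher at 24 weeks and 0 lower. The chow libraries differed less among themselves than the others, with a median SD of 0.193 over all rows in log2(CPM + 1), against 0.310 at 16 weeks.

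As at 16 weeks, replicates C and D of 24 weeks lay apart from A and B. Over all rows tested, the deviations of C and D from the 24-week mean correlated by 0.324 to 0.725 with those of C and D from the 16-week mean, and by -0.685 to -0.438 with those of A and B of 16 weeks, given as a description across genes. What the letters share was not tested. With replicates A and B alone at 24 weeks, 26.5% of the lower rows were lower and 49.5% of the higher rows were higher than in chow, where 3.85% and 13.1% of all rows were.

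**Figure D5:**
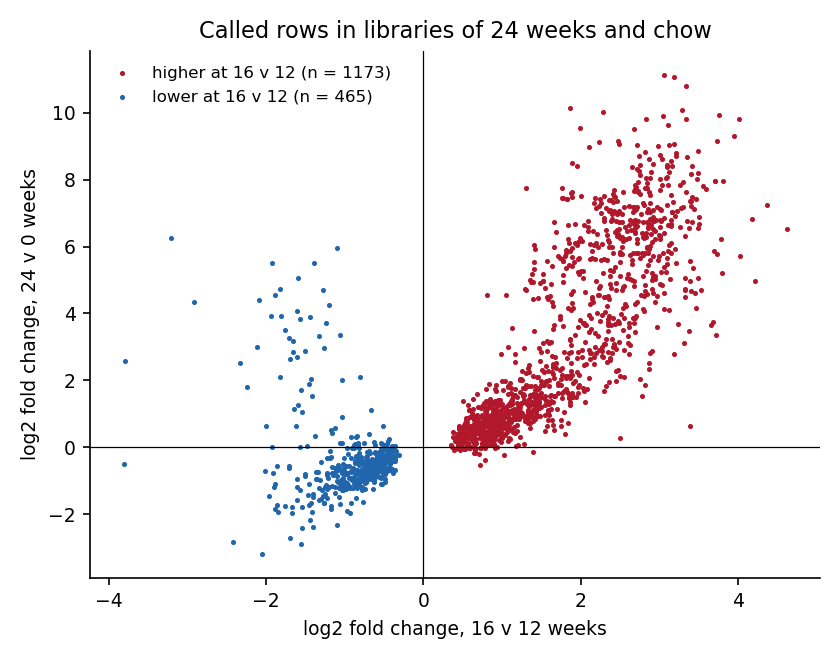
Each point is a row called at 16 against 12 weeks, with that log2 fold change on the x axis and the log2 fold change at 24 weeks against chow, from other libraries, on the y axis. Of the 1173 red rows none was called lower at 24 weeks, while the 465 blue rows divide into 280 called lower, 34 called higher and the rest.

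In the CCl4 experiment, the called lines moved mostly in the same directions. Of 447 lower rows tested there, 254 (56.8%) were lower at 8 weeks of CCl4 than with vehicle and 32 were higher, where 24.0% and 21.8% of all rows were, and the median log2FC was -0.61. Of 1163 higher rows tested, 933 (80.2%) were higher and 12 lower, with a median log2FC of 2.16. Between 1 and 4 weeks of CCl4, 169 (37.8%) of the lower rows fell and 48 rose, where 20.8% and 20.7% of all rows did. Of the higher rows, 587 (50.5%) rose and 64 fell in that interval. Of the 111 rows higher with replicates A and B alone at 16 weeks, 110 were higher at 8 weeks of CCl4 and 92 rose between 1 and 4 weeks, and 32 of 71 tested were higher in culture, with 22 lower, where 38.5% and 34.2% of all rows were.

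The sets defined by the first step of the diet differed in their CCl4 values. The 357 rows that rose in both steps were higher at 8 weeks of CCl4 in 356 cases, with a median log2FC of 5.84. The 44 rows lower in both steps were lower in 37 cases, with a median of -0.999, and the 356 rows not called in the first step were lower in 212 cases, with a median of -0.64. Of the 65 rows that had risen at 12 weeks and then fell, 47 were tested. Of these, 14 (29.8%) were higher and 5 (10.6%) lower, with a median of 0.18. Over all rows tested, 21.8% were higher and 24.0% lower at 8 weeks of CCl4. The differences between these sets were not tested.

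In culture the lower rows had no common direction. Of 443 tested, 197 (44.5%) were lower and 173 (39.1%) were higher after 12 days than at day 0, where 34.2% and 38.5% of all rows were, and the median log2FC was -0.09. Of the 1173 higher rows, 910 were tested in culture, and of the 357 that rose in both steps 228 were. Of all 13510 rows, 12377 were tested there. The rest did not pass the filter on low counts in the culture experiment, so the shares leave them out. Of the 910 rows, 444 (48.8%) were higher and 238 (26.2%) lower, with a median log2FC of 0.48. The paper proposes that hepatocyte and macrophage RNA may be present in HSC libraries from living mice, which could not be checked here. Of the 44 rows lower in both steps of the diet, 30 were lower and 9 higher in culture. Among the named rows, row 16658 had a log2FC of -4.56 and row 13710 one of -5.96 after 12 days, whereas row 13253 had -0.08 and row 16716 rose by 2.31.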

How the data were processed

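The authors aligned reads to mm10 with STAR and deposited raw exon read counts per gene, which Homer counted regardless of strand, keeping up to 3 reads at any position. Tool versions are not given in the sources used here. Columns were assigned by title. The command line printed atop the WD, CCl4 and IVT tables names the same libraries, which are those of IVT by the labels. Counts were tested with edgeR 4.0.16 in R 4.3.3 (TMM, filterByExpr, quasi-likelihood test, Benjamini-Hochberg adjustment over 13510 rows), with all 16 WD libraries in one fit, and CCl4 and IVT each in their own. SEs come from the quasi-likelihood F. CPM in the text use TMM-scaled library sizes. Positions used log2(CPM + 1) and exact permutation over libraries. The test was first run on simulated data. Identifiers were matched to RefSeq and GENCODE. Figures were drawn in Python 3.11.15.

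The called rows, sets and tests were chosen with earlier results of these data known. Named rows are, among called rows whose 4 against 4 libraries did not overlap, the 6 largest falls and rises, the 4 most abundant each way, and 4 each of rows flat at 12 weeks then lower, higher then lower, higher in both steps, and lower at both 16 against 12 and 24 against 0 weeks. Marker lists were not used, because rows could not be named. Libraries were taken as separate mice, which the labels call biological replicates. Read counts understate the counting error where reads are copies of one fragment. Alternatives were the exact test, DESeq2 1.42.0, other scalings, filters, thresholds and pseudocounts, the 8 libraries alone, thinned libraries, the replicate letter as a block, and leaving out libraries.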

Additional observations from a re-analysis of the deposited data

Results flagged for a closer look

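Of 78 groups of 4 libraries examined for a lone value, 10 held a library far from the other 3. The test was Dixon's, of the gap over the range (95% level), where chance would flag about 1 in 20 groups, or 3.9. The groups share libraries and include the named rows, which were chosen for their change in these libraries. The value of 3.9 is thus only a rough reference.

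At 12 weeks, replicate B had a total count of 2425443, against 5892116 to 6045174 in the others. Replicate D of 12 weeks had a lower quartile of 3.86 in log2(CPM + 1), against 3.78 to 3.79. Replicate A had an upper quartile of 6.58 (others 6.44 to 6.45), and gave 85.34 CPM for row 21392 (others 33.14 to 39.5) and 43.56 CPM for row 17025 (others 6.83 to 10.97). Replicate B gave 1136 CPM for row 10553 (others 639.2 to 684.5) and 1044 CPM for row 7144 (others 528.6 to 562.2).

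At 16 weeks, replicate A gave 13.27 CPM for row 21392 (others 0 to 0.87). Replicate C gave 15.50 CPM for row 4453 (others 3.20 to 4.64) and 17.67 CPM for row 2282 (others 5.20 to 6.38).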

How the results depend on the processing

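The count of rows higher at 16 than at 12 weeks was between 700 and 1375 when 1 library was left out, and 111 with replicates A and B alone at 16 weeks. The count of rows lower was between 78 and 820 with 1 library left out. It was 833 with DESeq2, 301 with no filter on low counts, 155 at 2-fold or more, 97 in the fit of the 8 libraries and 1 with A and B alone. Of the 465 rows, 89 were also called in the fit of 8 libraries, whose common biological coefficient of variation was 0.32 against 0.3.

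Rows whose second step was above the first numbered 54 to 333 with 1 library left out, 495 with DESeq2, 133 with no filter and 50 with A and B alone. Rows newly lower against chow numbered 1510 at 2-fold or more and 751 with A and B alone, and 1844 to 3035 with 1 library left out. Those also lower at 16 against 12 weeks numbered 47 to 627 with 1 left out, 502 with DESeq2, 211 with no filter, 84 at 2-fold or more and 1 with A and B alone. The share of lower rows that were lower at 24 weeks was 37.4% at 2-fold or more and 26.5% with A and B alone at 24 weeks, and that of higher rows 49.5%. The 2-fold limit applied to both comparisons, and the share of all rows at that limit was not taken. The cause of these changes was not tested, except that the fits without libraries have fewer samples.

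With the replicate letter as a replicate block, 1255 rows were higher and 715 lower, and 495 newly lower rows were lower at 16 against 12 weeks. Deviations of same-lettered libraries of 12 and 16 weeks correlated by 0.131, 0.0828, -0.369 and 0.224, so the letters were not taken as pairs. The 3 position differences kept their direction under every alternative run. Only the repressed position minus the induced position passed 0.05, without replicate B of 16 weeks (44.9, exact permutation p = 0.0286), and it was 20.4 to 44.9 with 1 library left out. The 31 named rows gave 587 alternative values, of which 448 kept the call and 139 lost it, and their direction was largely fixed by the choice of rows without overlap. The fits with A and B alone, the separate fits without shared libraries, the block at 24 against 16 weeks, and, under each alternative, the newly lower rows, the shares called at 24 weeks and the repressed minus induced position were added after seeing the data. Rows near a few counts per library are limited by depth.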
